A study of Mus musculus with 2 samples.

Results

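Hoxa4, Hoxa5, Hoxa6, Hoxa7, Hoxa9, Hoxa10, Hoxa11 and Hoxa13 are 8 neighbouring homeobox genes on mouse chromosome 6, and CTCF binding across them was read from chromatin immunoprecipitation and sequencing of kidney tissue from newborn B6NCrl mice (age 0 days). The 8 genes were given as a list, and the peaks are those of the authors' optimal list whose summit, the base of highest signal, lies in chr6:52105590-52310880 (mm10): 13 of 65482 peaks. The 8 are among 21755 protein-coding genes of the annotation. No peak value enters this rule, but the window and members were chosen with earlier results of these data known. The 2 libraries, labelled as biological replicates 1 and 2, form the only group. They carry one shared biosample identifier and one shared donor identifier in the labels, so their differences may be technical. Everything below is a description without a test. The lists hold no read counts, so depth is unknown. In whole kidney a site bound in few cells and a site bound weakly in many cannot be told apart, and peak lists of CTCF hold no marker expression against which the tissue label could be checked.

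CTCF is a zinc-finger protein that binds a long, non-palindromic motif, so each site has a direction. Cohesin, the ring complex that extrudes chromatin loops, tends to stop at sites whose motifs point into the loop. Hox genes encode homeodomain transcription factors that pattern the body axis, and their order along the cluster matches the order of their expression domains. In mouse motor neurons, CTCF sites inside HoxA are known to separate active genes from neighbours kept silent by Polycomb. In the mouse kidney, the paralogues Hoxa11, Hoxc11 and Hoxd11 act together in the mesenchyme that induces the ureteric bud, and Hoxa10 acts in the stroma.

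The sequences that carry the direction of each site are shown first. They are the matches to a CTCF matrix of 19 bp whose consensus was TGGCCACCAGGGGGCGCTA. Only peaks of odd-numbered chromosomes entered the learning of the matrix, so chromosome 6 took no part in it. A match had to pass the score that 1 in 10000 control positions passed, within 100 bp of a summit. Of the 13 peaks, 6 had one (46.2%), against 76.2% of optimal peaks on even-numbered chromosomes and X. Each is printed 5′ to 3′ on the strand of the match, from the GRCm38.p6 genome (mm10), with the match in capitals. Peaks are numbered 1 to 13 from left to right on the forward strand.
Peak 5, upstream of Hoxa5, chr6:52204649-52204678, reverse strand: cccagTCTCCAGCGGGTGGCGCTCgagtcc
Peak 7, 5′ UTR of Hoxa7, chr6:52221799-52221828, reverse strand: agaaaATTCCAGGAGATGGCAGTGtggctc
Peak 8, 5′ UTR of Hoxa10, chr6:52240531-52240560, reverse strand: cgcagCCGCCACGAGATGGCGCACtcccga
Peak 9, 3′ UTR of Hoxa11, chr6:52243087-52243116, forward strand: agagtGAACCACCAGGGGTCCCAAaccatt
Peak 10, between Hoxa11 and Hoxa13, chr6:52257113-52257142, forward strand: gcttgTCAACACGAGGTGGCGCCCttgatc
Peak 13, between Hoxa13 and Evx1, chr6:52306044-52306073, forward strand: ggcgaTCGGCAGTGGGGGGCGCACcaagac

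In the optimal list the direction of the matches changed once along the cluster. The matches at Hoxa5, Hoxa7 and Hoxa10 all lay on the reverse strand, which is also the strand of all 8 genes. Those at Hoxa11, between Hoxa11 and Hoxa13, and beyond Hoxa13 all lay on the forward strand. The change fell between the peaks in Hoxa10 and Hoxa11, whose summits are 2516 bp apart, and matches on its 2 sides point away from each other. That position rests on the weak Hoxa11 peak, at signal percentile 27.4 of the optimal list, whose match scored 12.3. A reverse match that scored 12.8 lay nearby in Hoxa11, under no optimal peak. The upper-signal 50% of the optimal list lacks the Hoxa11 peak and keeps 2 forward and 3 reverse matches. There the change lies anywhere from the Hoxa10 peak to the peak between Hoxa11 and Hoxa13. Over the optimal list (even-numbered chromosomes and X) 50.4% of matches lay on the reverse strand. The conservative list adds a forward match at a Hoxa9 TSS, between the reverse matches of Hoxa7 and Hoxa10 (4 forward and 3 reverse in all), so the single change does not hold there. A matrix learned from all sequence, repeats included, gave 3 reverse matches and 1 forward match, and no match passed the score of 1 in 100000 control positions.

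**Figure D1:**
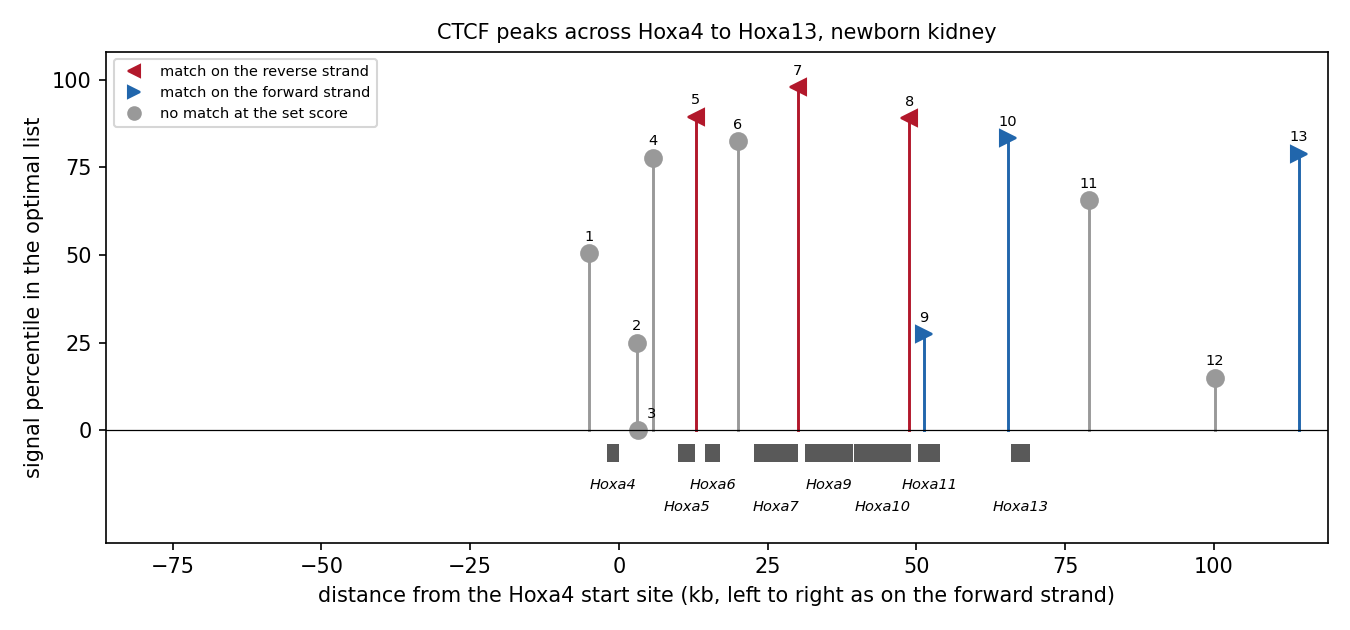
Signal percentile in the optimal list (vertical axis, 0 to 100) of the 13 CTCF peaks against distance from the Hoxa4 start site in kb (horizontal axis), with the 8 genes as grey bars; arrowheads give the strand of the matrix match and circles mark peaks without one. The 3 reverse matches lie left of the 3 forward ones, and the highest peak, number 7 at percentile 97.8, lies at the 5′ end of Hoxa7.

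From Hoxa4 to Hoxa13, a span of 71.2 kb, 9 peaks were listed, and 6 of the 7 gaps between neighbouring genes held at least 1, counting from gene midpoint to gene midpoint. The exception was the gap from Hoxa9 to Hoxa10, which also holds Mir196b. With the conservative list, or with either replicate left out, all 7 gaps held a peak. Counting only the sequence between genes, 4 of the 7 held an optimal peak. A percentile here is a peak's place by the authors' signal value among all peaks of the optimal list, and ranks are those of the best-ranked overlapping peak in each library's own list of 300000 peaks, where 1 is the highest signal.

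The most 3′ of the 8 genes, Hoxa4, had no peak of its own within 1 kb of a transcription start site (TSS). Its flanking peaks were peak 1, 5061 bp downstream of its TSS at percentile 50.6, and a pair of overlapping intervals upstream. Peak 1 ranked 32943 in replicate 1 and 32626 in replicate 2. Its summit also lies in introns of several longer genes that span this stretch, Gm28308, Gm29430 and Hoxaas3 among them. The summits of peaks 2 to 6 likewise lie in introns of longer genes, Gm28308 and Hoxaas3 among them. The first interval of the pair, peak 2, lay 3017 bp upstream of the TSS at percentile 25 and ranked 49961 in replicate 1 and 60811 in replicate 2. Peak 3 lay 202 bp further on at percentile 0.0741. The best-ranked library peaks that peak 3 overlapped were those of peak 2. Its own place was lower: replicate 2 listed a second peak there at rank 119711, replicate 1 listed none, and the pooled list gave rank 266331. In all, 7.95% of optimal peaks had a pooled rank beyond the length of the optimal list.

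A stronger site stood farther upstream of Hoxa4, in the 10000 bp between Hoxa4 and Hoxa5. Peak 4 (chr6:52197350-52197576) was at percentile 77.7 and ranked 16032 in replicate 1 and 13443 in replicate 2. It had no match at the set score. Its best stretch scored 6.15 (log2 odds), below the set score of 10.8, with its centre 4 bp from the summit and on the reverse strand.

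Hoxa5, which acts in lung and axial skeleton development, had peak 5 (chr6:52204479-52204795) 70 bp upstream of its only annotated TSS. This peak was at percentile 89.5 and ranked 10627 in replicate 1 and 3765 in replicate 2. Both libraries placed it among their highest few percent of peaks, replicate 2 higher. The interval held a second, weaker reverse match, which scored 12.7 against 16.3 for the one printed above. That second match lies at the start of the transcribed part of Hoxa5:
Peak 5, second match, chr6:52204532-52204561, reverse strand: cgagtTTACCTCTAGAGGTCATCAggcagg

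Hoxa6 had no promoter peak, and its nearest site was peak 6 in the gap to Hoxa7, 3008 bp upstream of the Hoxa6 TSS. Peak 6 (chr6:52211604-52211864) was at percentile 82.4 and ranked 11439 in replicate 1 and 11968 in replicate 2. The libraries agreed closely on this site, yet no match lay near its summit. The best stretch scored 3.74 and was centred 78 bp away. Peaks 4 and 6 were the 2 of 7 peaks above percentile 75 that lacked a match. Among optimal peaks above that percentile on even-numbered chromosomes and X, 93.7% had one.

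Hoxa7 carried the highest peak of the cluster. Peak 7 (chr6:52221666-52221967) was at percentile 97.8 and ranked 3596 in replicate 1 and 1132 in replicate 2. It lay 46 bp inside the longest annotated transcript, in its 5′ UTR. That start site is 1 of 5 annotated for Hoxa7, and the others lay between 1415 and 4356 bp from the summit. The peak is thus at the far 5′ edge of the gene, next to Hoxa9, and its match scored 14.8 with no CpG in it.

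Hoxa9, which also acts in blood progenitors, had no optimal peak in its body or within 1 kb of any of its 5 TSSs, and the nearest was peak 7 at 4381 bp. Both libraries nevertheless listed weak signal there. The best-ranked library peak within 1 kb of a Hoxa9 TSS was 59786 in replicate 1 and 51540 in replicate 2, inside the upper set of each library (as many of its highest peaks as the optimal list holds). They belong to different sites in Hoxa9. At the site of the replicate 1 peak, replicate 2 ranked 53738. At the site of the replicate 2 peak, replicate 1 ranked 69620, outside its upper set. All these ranks are far below those of the Hoxa5, Hoxa7 and Hoxa10 peaks.

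Hoxa10 had peak 8 (chr6:52240419-52240672) in the 5′ UTR of its long transcript, 247 bp downstream of the nearest TSS and 306 bp from the gene's 5′ end. It was at percentile 89.0 and ranked 8395 in replicate 1 and 7191 in replicate 2. The TSSs of the shorter Hoxa10 transcripts lay 5609 and 7224 bp from the summit. The peak thus lies at the start of the long form, on the side facing Hoxa11. Its match held 3 CpG dinucleotides, the most of the 6 matches.

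Hoxa11, the member of this group with the best known part in kidney development, had a weak peak in its 3′ UTR and none at its promoter. Peak 9 was at percentile 27.4 and ranked 49197 in replicate 1 and 70298 in replicate 2. It entered the upper set of replicate 1 and not that of replicate 2. Within 1 kb of the Hoxa11 TSSs the best library peaks ranked 62443 in replicate 1 and 71373 in replicate 2.

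Hoxa13, the most 5′ gene, which acts in digits and the genital tubercle, was flanked by sites on either side and had none within 1 kb of its TSSs. Peak 10 (chr6:52257004-52257263) lay downstream of the gene, 3668 bp from the nearest TSS and within an exon of the transcript 9530018H14Rik. It was at percentile 83.2 and ranked 12149 in replicate 1 and 10145 in replicate 2. Upstream of Hoxa13, peak 11 lay 9826 bp from the TSS at percentile 65.7. It ranked 21599 in replicate 1 and 22423 in replicate 2. The best-ranked library peaks within 1 kb of a Hoxa13 TSS reached only rank 80801 in replicate 1 and 67725 in replicate 2.

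The stretch between Hoxa13 and Evx1, a homeobox gene next to the cluster, held 2 more peaks of unequal strength. Peak 12, 31007 bp upstream of Hoxa13, was at percentile 15.0 and ranked 55262 in replicate 1 and 81917 in replicate 2. Peak 13 (chr6:52305951-52306173), 45174 bp upstream of Hoxa13, was at percentile 78.8 and ranked 12133 in replicate 1 and 15231 in replicate 2. Peak 13 was the last before a long empty interval: the next optimal peak to the right lay 184 kb away, outside the window, at percentile 28.3.

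**Figure D2:**
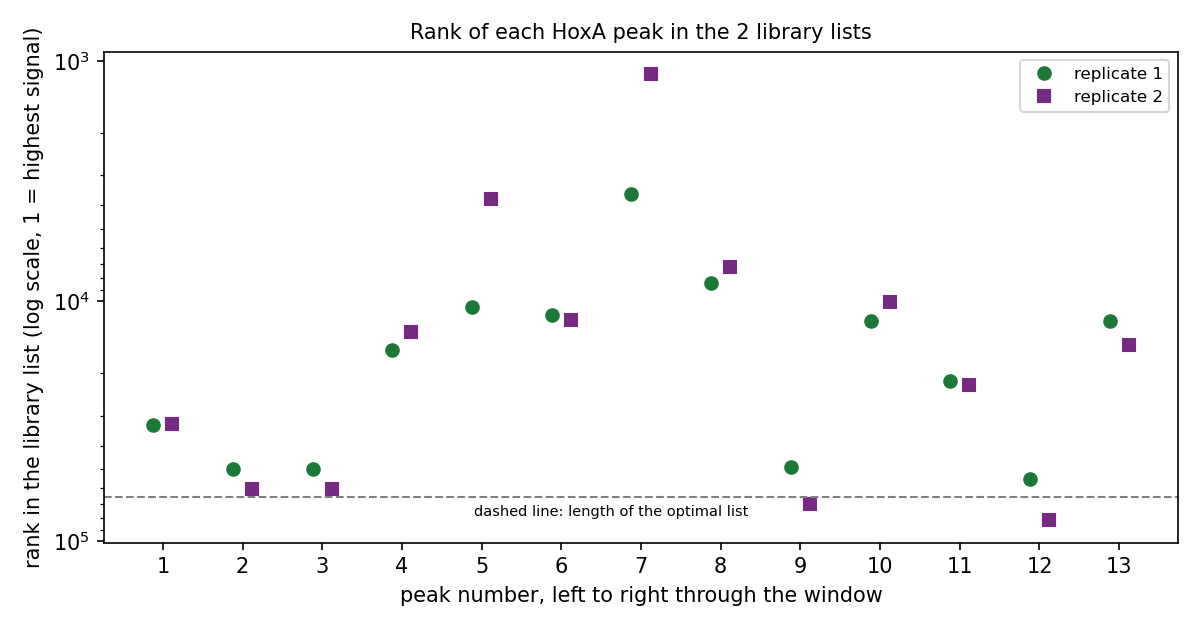
Rank of each of the 13 peaks (horizontal axis, numbered left to right) in the lists of replicate 1 (circles) and replicate 2 (squares), on a log axis with the highest-ranked peaks at the top. Peak 7 ranks highest in both libraries, at 3596 and 1132, and peaks 9 and 12 fall below the dashed line in replicate 2; peaks 2 and 3 are drawn at the same best-ranked library peaks.

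Neither library placed the HoxA peaks higher throughout. Of the 12 peaks other than peak 3, replicate 2 ranked 6 higher and replicate 1 ranked 6 higher. Of the 13, 11 (84.6%) overlapped an upper-set peak of both libraries, against 78.6% of all optimal peaks, and peak 3 is among the 11 only through the library peaks of peak 2. In the authors' conservative list were also 11, against 83.7% of all. Both shares are near those of all peaks. Peaks 3 and 12 were the pair missing from the conservative list.

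Above percentile 75 lay 7 of the 13 HoxA peaks (53.8%), where 25% of all peaks lie by construction, and 1 lay above percentile 90. The median percentile was 77.7. This median fell to 62.2 in the conservative list and to between 49.7 and 50.2 in the upper set of a single library, lists that held 15 and 17 window peaks. Of the 17, 12 in replicate 1 and 15 in replicate 2 overlapped optimal peaks. Several of those in replicate 2 were second calls over the same optimal peak, such as rank 43944 beside rank 1132 at peak 7. The 7 peaks above percentile 75 (peaks 4 to 8, 10 and 13) were in the conservative list and in the upper sets of both libraries.

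The share of members with a promoter peak was near that of all genes. A summit lay within 1 kb of a TSS of 3 of the 8 genes (37.5%), Hoxa5, Hoxa7 and Hoxa10, against 39.4% of all protein-coding genes. Counting only the gene's 5′ end left the same 3, against 31.3%. With the conservative list 5 members had one, against 36.6% of all genes, with Hoxa9 and Hoxa11 added. The upper set of replicate 1 gave the same 5 genes, against 39.1%, and that of replicate 2 gave 4, with Hoxa9, against 39.2%. In the upper-signal 50% of the optimal list the 3 remained, against 19.8% of all genes.

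The conservative list held 15 peaks in the window, of which 4 were absent from the optimal list. All 4 lay among the members. They were an intronic peak of Hoxa5, a peak 42 bp upstream of a Hoxa9 TSS, a second peak in a Hoxa9 exon, and a peak 820 bp upstream of Hoxa11 in an exon of Hoxa11os, its antisense gene. Their pooled-list ranks were 54335, 64365, 63376 and 58693, all higher places than that of peak 3. Of these only the peak at the Hoxa9 TSS had a matrix match, which scored 12.1 and lay on the forward strand. Genome-wide, 7.81% of conservative peaks were absent from the optimal list.

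On the Hoxa4 side of the window the optimal list had no peak for 81.1 kb, 39.5% of the window. The nearest optimal peak to the left lay outside, 2.73 kb beyond the edge, at percentile 29.5. The libraries listed 22 peaks there in replicate 1 and 11 in replicate 2, nearly all weak. Replicate 1 had 1 upper-set peak there, at rank 57676, and replicate 2 had none, with a best rank of 84059. From the first to the last of the 13 summits was 119 kb, and the median distance between neighbouring summits was 9.08 kb, against 14.2 kb over the optimal list. Of the 12 distances, 6 were within 10 kb, against 41.1% over the list.

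**Figure D3:**
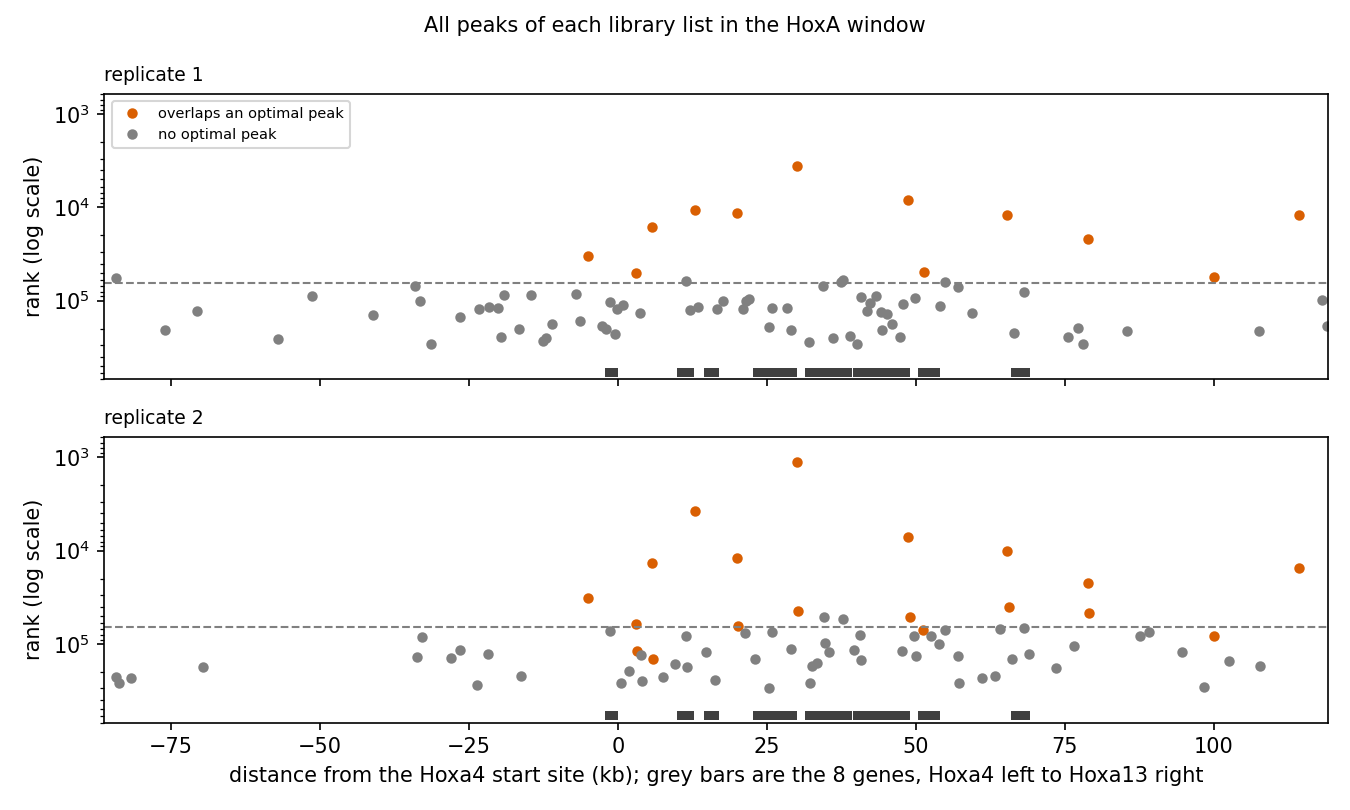
Rank (log axis, highest-ranked at the top) of every peak of each library list in the window, 84 in replicate 1 and 78 in replicate 2, against distance from the Hoxa4 start site in kb; orange points overlap an optimal peak and the dashed line is the length of the optimal list. Left of peak 1, the first orange point, the points stay near or below the dashed line in both libraries.

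The window as a whole was richer in peaks than most stretches of that length. It held 13 peaks in 205 kb, and 10.4% of 12820 non-overlapping tiles of the same length held at least as many. The median tile held 3. Tiles include unsequenced gaps.

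Beside the 6 of 13 HoxA peaks with a match, 4.16% of control windows 2 kb from a summit held one. The match centres lay a median of 6.5 bp from the summit in HoxA and 6 bp over the list. By score, the Hoxa5 and Hoxa10 matches (peaks 5 and 8) stood at percentiles 53.7 and 53.5 of matches over the list. The other 4 were below the list's median, at 34.2 for peak 7, 36.3 for peak 10, 12.6 for peak 13 and 9.37 for peak 9 in Hoxa11. At least 1 CpG was in 4 of the 6 HoxA matches, against 35.4% over the list. The sequence within 100 bp of HoxA summits had a median GC content of 53.2% and 7 CpG dinucleotides, against 48.8% and 2 over the list. No test was made of these shares.

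At a lower score, passed by 1 in 1000 control positions, 11 of the 13 peaks had a match, against 93.5% of optimal peaks on even-numbered chromosomes and X and 27% of control windows. Peaks 9 to 13 were then all forward, and of peaks 1 to 8 there were 5 reverse and 1 forward. The forward exception was peak 1, on the far side of Hoxa4. A pair of the added stretches was centred within 4 bp of strong or intermediate summits and is shown for comparison with the matches above, with the best stretch in capitals.
Peak 4, between Hoxa4 and Hoxa5, chr6:52197456-52197485, reverse strand: aggaaTCGCCAGCAGAGCTCGCTTtagtac
Peak 11, between Hoxa13 and Evx1, chr6:52270694-52270723, forward strand: atcttTCCCCACTAGATGTCTTCCaagtta

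Most matches in the window were not under optimal peaks. Of 36 matches at the set score, 7 lay under optimal peaks, 2 of them under the Hoxa5 peak, and 29 lay under none. Such a number is common: of 707 tiles of the same length on chromosome 6, 30.1% held at least as many matches under no optimal peak, with a median of 22. The 29 had a median score of 12.3 and a highest of 17.6, against 14.8 and 16.3 for the 7. Soft-masked sequence, which marks repeats, held 15 of the 29 and none of the 7. Between Hoxa13 and Evx1 lay 11 of the 29, of which 10 were forward and 8 soft-masked. A further 7 lay left of Hoxa4 and 11 among the members, such as a forward match in Hoxa6 that scored 14.3. Of the 29, 13 lay under a peak of at least 1 library list.

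**Figure D4:**
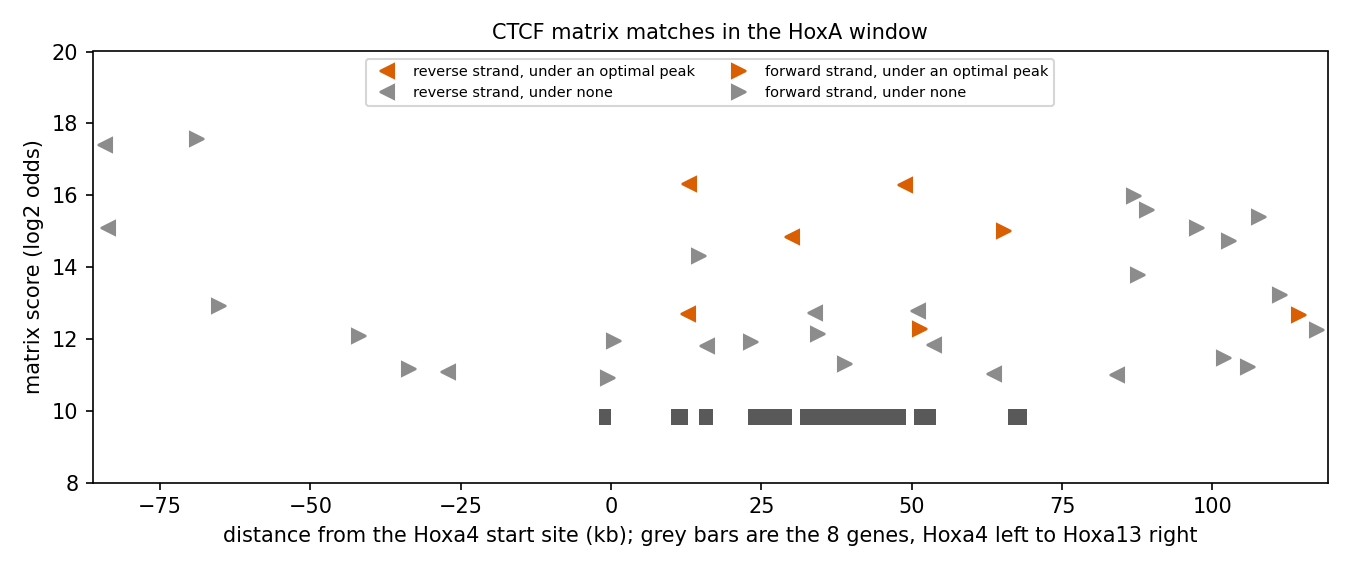
Score (log2 odds) of the 36 matrix matches in the window against distance from the Hoxa4 start site in kb, with arrowheads for strand and orange for the 7 under optimal peaks. Matches outside optimal peaks reach 17.6, above the highest under one at 16.3, and right of Hoxa13 nearly all point forward.

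Of RefSeq promoter windows of 300 bases (GRCm38.p6), 8 windows matched 7 of the members by symbol; Hoxa4 was not among them. Of the 8, 1 held a matrix match, against 9.4% of 32619 such windows on the same 20 chromosomes. It was that of Hoxa5, and it was also the only one of the 8 with an optimal summit inside. The promoter peaks of Hoxa7 and Hoxa10 lay outside those windows.

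The other Hox clusters gave these values side by side, with no test between them. HoxA had 6.33 peaks per 100 kb, HoxB 10.2, HoxC 5.56 and HoxD 6.60. The median percentile was 77.7 in HoxA, 40.4 in HoxB, 30.4 in HoxC and 63.9 in HoxD. Matches were 3 forward and 3 reverse in HoxA, 5 and 13 in HoxB, 3 and 2 in HoxC, and 3 and 4 in HoxD. The genes of HoxA lie on the reverse strand and those of HoxB, HoxC and HoxD on the forward strand. Reverse matches thus lie along the genes in HoxA and against them in the others. Of the Hox genes of paralogue groups 4 to 13, 3 of 8 had a promoter peak in HoxA, against 9 of 23 in the other clusters (39.1%). The highest were at Hoxb5 (percentile 96.5), at Hoxc5 and Hoxc10, which share a peak (94.3), and at Hoxd10 (63.0). A gene counted through any of its annotated TSSs, so a shared peak need not lie at the main promoter of both genes. The Hox11 paralogues Hoxc11 and Hoxd11, like Hoxa11, had no promoter peak.

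Among genes that act with Hox proteins or on Hox genes, promoter peaks were at 15 of 30 cofactors and regulators (50%), against 39.4% of all genes. The highest were at Kmt2b, a histone methyltransferase of the Trithorax group (percentile 93.3), and Ezh1, a Polycomb methyltransferase (85.2). The nearest summit to a Kmt2b TSS lay 896 bp away. Other regulators had low peaks, such as Ash2l (7.94) and Eed (21.5). Kmt2a, Ezh2, Suz12, Rnf2, Ring1 and Bmi1 were among those without a promoter peak. Of 9 genes listed for their link to the Hox11 proteins in the kidney, 7 had one (77.8%), against 39.4% of all genes. This short list was chosen with earlier results of these data known, and its share was not tested. Among the 7 were Itga8, an integrin subunit (95.9), Six2, a nephron progenitor regulator (40.6), and Gdnf, the signal for ureteric bud outgrowth (46.4). Eya1 and Sall1 had none.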

How the data were processed

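CTCF ChIP-seq of 2 kidney libraries gave 5 deposited lists of mm10 peaks, per the file names: 1 for each library, 1 for the pooled libraries, and the conservative and optimal lists, which passed a threshold on reproducibility (IDR). Aligner, peak caller, filters and that threshold were not given in the sources used here. Each deposited signal value is the authors' own and was used to rank peaks within 1 list only, since its scale differs between lists. The deposited −log10 q-value reached 1 shared highest value at 60069 optimal peaks, and it and the authors' score column ranked nothing. Many intervals have 1 fixed width per list (330 bp for 53.3% of optimal and 48.7% of conservative peaks), so widths were not compared.

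GENCODE M21 genes and the GRCm38.p6 sequence, the same assembly, were used on 20 chromosomes (65470 peaks, 93145 protein-coding TSSs), with pandas 2.3.3, numpy 2.4.6 and matplotlib 3.10.9 in Python 3.11.15. The matrix was learned with soft-masked bases left out and scanned over all bases. Scanning and promoter counting were tested on simulated data. A library on its own was its upper set of 65482 peaks. Every member and every peak of the window is named, other genes only as neighbours, from lists, or as the highest of another Hox cluster. Lists, window and members were chosen with earlier results of these data known. The genes Eya1 and Sall1, Itga8, Six2 and Gdnf, and the named regulators of Hox genes, were picked from their lists after their values were seen.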

Additional observations from a re-analysis of the deposited data

How the results depend on the processing

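Over the alternatives run, the window held 9 to 17 peaks, the stretch from Hoxa4 to Hoxa13 6 to 13, and 4 to 7 of the gaps held a peak, while 9 to 13 window peaks were found in both libraries. The median percentile was 62.2 with the conservative list, 82.4 for the members' span without flanks or the upper-signal 50% of the list, and 49.7 to 50.2 with either replicate left out. Members with a promoter peak numbered 5 with the conservative list and 4 to 5 with either replicate left out. The share of all genes with one was 36.6% with the conservative list, 31.3% at gene 5′ ends only, 49.9% with promoters of 2500 bp on each side and 39.1% to 39.2% with either replicate left out.

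The motif results depend on the score. At 1 in 1000 control positions 11 peaks had a match (6 forward, 5 reverse) and 342 matches lay under no peak; at 1 in 100000 these were 0 peaks (0 forward, 0 reverse) and 2 matches. The matrix learned from all sequence gave 4 matched peaks, 1 of them forward. Tiles with at least as many peaks as the window numbered 1333, against 680 with the conservative list and 558 to 641 with either replicate left out. No paired analysis was possible because the 2 libraries form 1 group. Depth is unknown, so no counting error can be given.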
